A study of Mus musculus with 19 samples.

Results

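Adult cerebellums that carried 1 mutant copy of *Wiz* were compared with wildtype cerebellums by RNA-seq. The comparison used 6 of the 19 samples of the series, of which 16 have read counts. They were the 3 libraries labelled *Wiz* MommeD30/+ (heterozygous) and the 3 labelled *Wiz* +/+ (wildtype) whose tissue is cerebellum. Every mouse was a male on the inbred FVB background at 56 days of age. The study gives the libraries of a genotype as biological replicates. *Wiz* MommeD30 arose in a chemical (ENU) mutagenesis screen, and the mutation was kept by crossing heterozygotes to the *Line3* strain, which is homozygous for a GFP transgene driven by a human alpha-globin promoter. Both genotypes therefore come from a transgenic line. The study describes the mutation as a null allele. It is germline and so present in every cell type, not only in neurons.

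*Wiz* encodes a zinc finger protein whose fingers lie unusually far apart. It binds G9a and GLP (encoded by *Ehmt2* and *Ehmt1*), the enzymes that place mono- and dimethylation on lysine 9 of histone H3, a mark of repressed chromatin. The cerebellum is built mostly of granule cells. Purkinje cells are the only output neurons of its cortex, with inhibitory interneurons, Bergmann glia and myelinating oligodendrocytes around them.

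Total counts per library lay between 28365687 and 30856484. Values below are CPM (read counts scaled to a common library total) after TMM scaling, so that a level is comparable between libraries for 1 gene but not between genes of different length. A gene was called when edgeR's quasi-likelihood test gave an adjusted p of at most 0.05. Of 15979 genes tested, 839 (5.25%) were called, 409 (2.56%) lower and 430 (2.69%) higher in *Wiz* MommeD30/+. The median log2 fold change of all tested genes was -0.003. The CPM ranges of the genotypes did not overlap for 3882 genes (24.3%), and for 819 of the 839 called. Most calls were small: the median absolute log2 fold change was 0.20, and 422 of the 839 were under 0.2. In bulk tissue, fewer cells of a type and less RNA per cell cannot be told apart.

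Which library was in the fit decided many of these calls. All 839 kept their direction when any 1 library was left out, but 187 genes were called without wildtype library 3 and 280 without heterozygous library 1, against 891 without wildtype library 2. Of the 409 lower genes, 68 were called in each of the 6 fits with 1 library left out, and of the 430 higher genes 97 were. With limits on the fold change added (below 0.7 or above 1.3), 48 genes (0.3%) were lower and 85 (0.532%) higher, of which 17 and 46 were called in each of those fits. Counts of gene groups are therefore also given without wildtype library 3 and without heterozygous library 1. Of all genes tested, 77 of 16156 were lower and 110 higher without wildtype library 3. Without heterozygous library 1, 107 of 16180 were lower and 173 higher. At such shares any short list holds few or no calls.

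*Wiz* itself (ENSMUSG00000024050, chr17:32354055-32389439 of GRCm38, minus strand) had 95.2, 95.8 and 95.2 CPM in the wildtype libraries and 67.7, 66.5 and 67.9 CPM in the heterozygous libraries. The genotypes were well apart (log2 fold change -0.50 with an error of 0.03, adjusted p = 9.9e-08 by edgeR). Of its partners, *Ehmt1* went from 64.4-66.9 to 61.5-64.3 CPM and *Ehmt2* from 135-143 to 131-134 CPM, and neither passed the test (log2 fold changes -0.06 and -0.08). *Zfp644*, which encodes another zinc finger partner of G9a and GLP, was higher at 86.0, 85.4 and 84.0 against 73.7, 78.6 and 78.1 CPM (log2 fold change 0.15, adjusted p = 0.019; 0.059 with GC correction). Genes around *Wiz* showed no local excess of calls. Within 1 Mb, 0 of 33 other tested genes were lower and 1 higher, and within 5 Mb 4 of 237 were lower and 5 higher, shares at or near those of all genes.

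The tissue label was checked with cell type markers. Every wildtype and heterozygous library had high granule and Purkinje cell markers, with summed levels of 7706-8041 and 7795-8414 CPM. The 12 *Hox* genes of the caudal hindbrain summed to at most 1.34 CPM.

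Granule cell markers overlapped between genotypes in sum. Of the 12 granule cell markers tested, 2 were lower and 1 higher, with a median log2 fold change of -0.05. *Zic1*, a transcription factor of the granule lineage, was at 1037, 1053 and 1077 CPM in wildtype and 971, 959 and 1005 CPM in heterozygous libraries (log2 fold change -0.11, adjusted p = 0.033). *Cbln3*, which encodes a secreted synapse organiser of granule cells, was higher (1614, 1598 and 1553 against 1772, 1666 and 1730.1 CPM, log2 fold change 0.12, adjusted p = 0.031). *Gabrd*, the delta subunit of extrasynaptic GABA-A receptors, was lower (log2 fold change -0.12) but not with GC correction (adjusted p = 0.19). None of the 3 was called without wildtype library 3 or without heterozygous library 1.

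Of 12 Purkinje cell markers 0 were lower and 1 was higher: *Rora*, a nuclear receptor needed for Purkinje cell development, had 399.5, 437 and 402 CPM in wildtype and 457, 476 and 454 CPM in heterozygous libraries (log2 fold change 0.16, adjusted p = 0.010). None of 9 markers of molecular layer and Golgi interneurons passed; *Gad1*, the main GABA-synthesising enzyme, and *Pvalb*, a calcium buffer, had log2 fold changes of 0.00 with standard errors of 0.03. Of 12 Bergmann glia and astrocyte markers, 2 were lower (*Gfap*, the astrocyte filament, at log2 -0.19, and *Fabp7*, a lipid carrier of Bergmann glia, at log2 -0.19) and 1 higher (*Gdf10*, a Bergmann glia growth factor, at log2 0.12). The summed markers of this list went the other way from the 2 lower genes, at 6190-6302 CPM in wildtype and 6337-6507 CPM in heterozygous libraries, and 9 of the 12 lay above 0. Unipolar brush cells, an excitatory interneuron of the granular layer, had summed markers of 63.3, 67.7 and 67.7 CPM in wildtype and 53.3, 60.8 and 51.6 CPM in heterozygous libraries, without overlap, but most of this sum is 1 gene. That gene, their defining factor *Eomes*, was the 1 of 3 markers called, at 57.0, 62.0 and 60.9 against 48.3, 56.1 and 46.2 CPM (log2 fold change -0.26, adjusted p = 0.014), and in 3 of the 6 fits with 1 library left out. Without wildtype library 3, no marker of these 4 cell types (Purkinje cells, interneurons, Bergmann glia, unipolar brush cells) was called, and without heterozygous library 1 only *Rora* was.

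Of 17 oligodendrocyte and myelin genes tested, 7 were lower and 0 higher (median log2 fold change -0.11). Their sums overlapped, at 5690, 5355 and 5726 CPM in wildtype and 5175, 5372 and 5192 CPM in heterozygous libraries. *Trf*, the iron carrier that oligodendrocytes make, had 34.4, 33.3 and 33.7 CPM in wildtype and 27.6, 28.1 and 28.5 CPM in heterozygous libraries (log2 fold change -0.27, standard error 0.04, adjusted p = 0.0020). It was called in each of the 6 fits with 1 library left out. *Mag*, the myelin-associated glycoprotein, had 174, 155 and 175 against 147, 149 and 147 CPM (log2 fold change -0.19, adjusted p = 0.010). *Mbp*, a main protein of compact myelin, had 2510.4, 2290.4 and 2510.3 against 2102, 2251 and 2155 CPM (log2 fold change -0.17, adjusted p = 0.013). For both, wildtype library 2 lay close to the heterozygous range. *Ugt8a* (galactolipid synthesis), *Cnp* (a myelin enzyme), *Gjb1* (connexin 32) and *Sox10* (the lineage's transcription factor) completed the 7, at log2 fold changes of -0.11 to -0.27. With GC correction 4 of the 17 stayed lower, and 1 without wildtype library 3 or without heterozygous library 1. With the blood covariate 1 of the 17 was lower. None of 4 precursor markers passed.

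Microglial markers showed 0 of 16 lower and 1 higher: *Bin2*, a membrane-shaping protein of blood-derived cells, had 0.881, 0.542 and 0.619 against 1.31, 1.49 and 1.07 CPM. Among 13 endothelial markers *Slco1a4*, a transporter of the blood-brain barrier, was higher (log2 fold change 0.23, adjusted p = 0.0043) and *Cldn5*, its main tight junction protein, lower (log2 fold change -0.26, adjusted p = 0.036). Pericyte *Rgs5* was higher (log2 fold change 0.14) and *Col1a1*, of the meninges, lower (log2 fold change -0.30). With GC correction *Cldn5*, *Rgs5* and *Col1a1* missed the threshold (adjusted p = 0.19, 0.21 and 0.053). *Cldn5* and *Rgs5* were each called in 1 of the 6 fits with 1 library left out, *Bin2* and *Col1a1* in 2 and *Slco1a4* in 6. None of 5 ependymal markers passed.

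Erythroid markers, a measure of residual blood, separated the genotypes. The 7 found in the files summed to 145, 207 and 228 CPM in wildtype and 267, 482 and 282 CPM in heterozygous libraries, and 4 of the 6 tested were called higher (median log2 fold change 0.86), 3 without wildtype library 3 or without heterozygous library 1. *Hbb-bs*, an adult beta-globin, had 66.1, 93.3 and 103 against 126, 222 and 127 CPM (log2 fold change 0.86, adjusted p = 0.0077). *Alas2*, the erythroid enzyme that starts haem synthesis, had 6.76, 7.05 and 8.56 against 11.9, 22.8 and 12.7 CPM (log2 fold change 1.08, adjusted p = 0.0032). Every heterozygous library was above every wildtype library in the sum, and heterozygous library 2 was the highest. None of 7 neutrophil markers was counted often enough to be tested, and they summed to 0.261-0.847 CPM in wildtype and 0.976-1.09 CPM in heterozygous libraries. Near-identical globin copies share reads, so their values are uncertain individually.

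Heterozygous library 2 was also low in markers of the choroid plexus, the tissue that secretes cerebrospinal fluid. The 11 markers summed to 1671 CPM, against 2970-3472 CPM in the other 5 libraries. *Ttr*, the thyroid hormone carrier made there, had 877 CPM in that library and 1615-1892 CPM in the others. No choroid plexus marker passed the test.

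**Figure D1:**
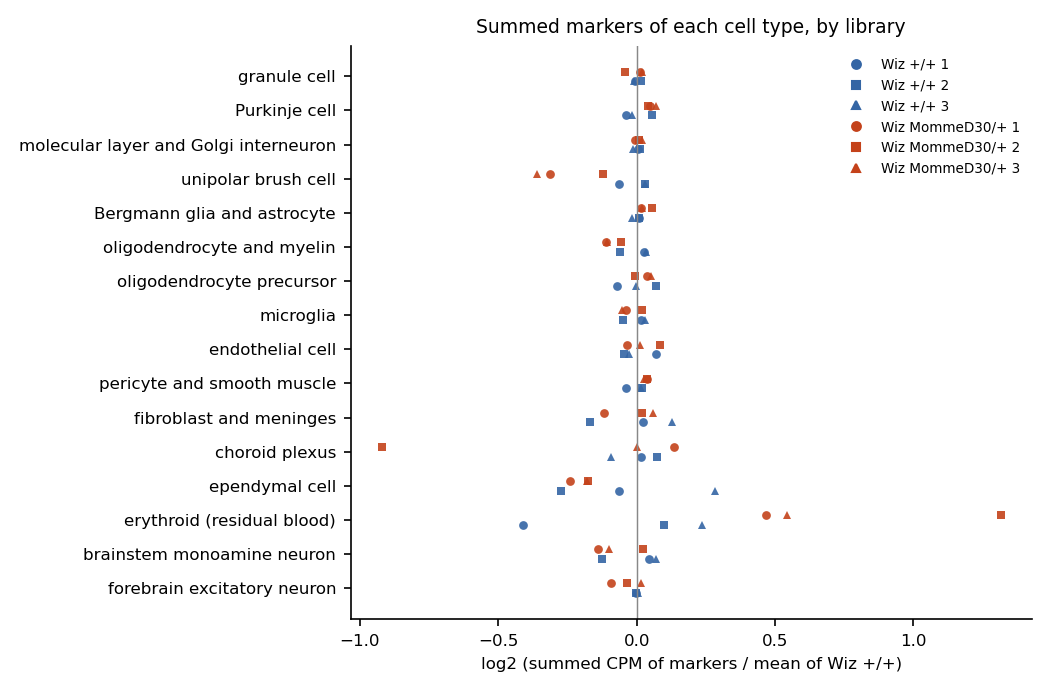
Summed CPM of the markers of each cell type in every library, as log2 of the ratio to the wildtype mean; circles, squares and triangles are libraries 1, 2 and 3 of each genotype. Erythroid markers are higher in all 3 heterozygous libraries, unipolar brush cell markers are lower in all 3, and the choroid plexus sum is low in heterozygous library 2 alone (1671 CPM).

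Genes of the endoplasmic reticulum (ER) stress response were lower or missed the test. When unfolded proteins gather in the ER, sensors there raise transcription of chaperones through the factors XBP1 and ATF6, which act at a promoter element called ERSE. Of 16 genes listed, 6 were lower and 0 higher, with a median log2 fold change of -0.14; 7 were lower with GC correction. The ERSE (searched on both strands as CCAAT, then any 9 bases, then CCACG) was present in the promoter of 4 of the 15 members that RefSeq gives a promoter for, and in 37 of 27025 genes with a promoter (0.137%). Their promoters, from 250 bases before to 50 bases after the start of the gene in GRCm38.p6 (RefSeq), are shown because these 4 chaperone genes carry the same element; capitals mark it, on either strand.
Creld2, chr15:88819396-88819695, plus strand: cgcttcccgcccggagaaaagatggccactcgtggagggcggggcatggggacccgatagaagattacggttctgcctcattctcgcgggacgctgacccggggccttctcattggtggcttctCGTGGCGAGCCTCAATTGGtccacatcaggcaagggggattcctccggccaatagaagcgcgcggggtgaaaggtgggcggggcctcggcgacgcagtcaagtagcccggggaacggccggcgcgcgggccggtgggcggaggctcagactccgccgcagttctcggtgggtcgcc
Calr, chr8:84846882-84847181, minus strand: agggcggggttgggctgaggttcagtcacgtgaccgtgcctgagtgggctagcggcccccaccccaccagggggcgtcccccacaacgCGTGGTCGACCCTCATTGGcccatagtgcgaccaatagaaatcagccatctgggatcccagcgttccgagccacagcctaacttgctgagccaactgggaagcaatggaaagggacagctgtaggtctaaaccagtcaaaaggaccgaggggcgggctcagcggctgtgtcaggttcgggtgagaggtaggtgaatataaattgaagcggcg
Hsp90b1, chr10:86705395-86705694, minus strand: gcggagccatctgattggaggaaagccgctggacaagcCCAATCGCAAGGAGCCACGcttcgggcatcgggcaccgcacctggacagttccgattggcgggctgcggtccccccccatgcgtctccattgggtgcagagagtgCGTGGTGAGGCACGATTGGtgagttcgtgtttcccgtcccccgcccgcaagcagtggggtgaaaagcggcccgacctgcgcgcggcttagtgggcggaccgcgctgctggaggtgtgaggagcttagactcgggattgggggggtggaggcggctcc
Hspa5, chr2:34771840-34772139, plus strand: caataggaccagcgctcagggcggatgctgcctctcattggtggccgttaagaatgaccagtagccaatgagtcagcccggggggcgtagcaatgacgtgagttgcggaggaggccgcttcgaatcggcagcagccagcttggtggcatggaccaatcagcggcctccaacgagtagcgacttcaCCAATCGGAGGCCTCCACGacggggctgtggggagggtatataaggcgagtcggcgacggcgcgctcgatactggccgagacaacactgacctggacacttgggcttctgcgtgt

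*Creld2*, an ER-resident protein induced by unfolded proteins, had 20.6, 21.3 and 22.5 CPM in wildtype and 15.6, 15.9 and 19.3 CPM in heterozygous libraries (log2 fold change -0.34, standard error 0.07, adjusted p = 0.012). *Calr*, the calcium-binding chaperone calreticulin, had 394, 404 and 422 against 322, 353 and 389 CPM (log2 fold change -0.20, adjusted p = 0.024). Neither overlapped between genotypes. *Hsp90b1*, the ER form of HSP90 and the 1 gene of the 4 with a second ERSE, had 397, 412 and 441 against 353, 362 and 399 CPM (log2 fold change -0.16, adjusted p = 0.033). *Hspa5* (BiP), the main ER chaperone, had 416, 442 and 459.7 against 333, 393 and 421 CPM, and its log2 fold change of -0.20 missed the threshold (adjusted p = 0.052; 0.048 with GC correction). In both, heterozygous library 3 reached into the wildtype range.

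The other members called were *Sdf2l1*, a cofactor of BiP (16.5, 15.7 and 17.6 against 8.93, 11.5 and 14.6 CPM, log2 fold change -0.50), *Manf*, a secreted protein released on ER calcium loss (62.7, 62.5 and 65.3 against 41.8, 54.3 and 56.0 CPM, log2 fold change -0.32), and *Xbp1* itself (136, 146 and 152 against 100.2, 118 and 137 CPM, log2 fold change -0.29). Heterozygous library 1 was lowest and library 3 nearest to wildtype for each of the 3. In the arm of the response that runs through ATF4, *Atf4*, *Ddit3*, *Asns* and *Trib3* had log2 fold changes of -0.02 to -0.12, none past the test. Across all genes, 20 tested genes had an ERSE in their promoter, of which 4 were lower (2.56% of all tested genes were) and 1 higher. The fourth lower gene beside those above was *Pdia6*, a disulphide isomerase (90.8, 91.0 and 96.6 against 67.1, 73.9 and 88.8 CPM, log2 fold change -0.27), and the higher 1 *Zfp57*, which protects imprinted methylation (log2 fold change 0.41). The count of lower genes in the list was 0 without wildtype library 3, 1 without heterozygous library 1 and 8 without heterozygous library 3. With the blood covariate 1 of the 16 was lower, where 0.507% of all tested genes were, and the median log2 fold change was -0.15.

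Of 79 nuclear genes for the respiratory chain and ATP synthase tested, 13 were lower, 0 higher and 66 did not pass. Their log2 fold changes ran from -0.91 to 0.12 with a median of -0.07, and 73 of the 79 lay below 0. *Cyc1*, cytochrome c1 of complex III, had 202, 188 and 193 CPM in wildtype and 175, 171 and 174 CPM in heterozygous libraries (log2 fold change -0.16, adjusted p = 0.0059). *Ndufs7*, a core subunit of complex I, had a log2 fold change of -0.20 (adjusted p = 0.016), and *Uqcrq*, of complex III, one of -0.15. The 13 genes read from the mitochondrial genome went the other way, with 0 lower and 3 higher (median log2 fold change 0.07): *mt-Atp8* had 1206, 1198 and 1207 against 1478, 1299 and 1279.7 CPM. *mt-Cytb* and *mt-Nd2* each had a log2 fold change of 0.12. These transcripts are rich in A and T (median GC 37.1%, against 50.2% for the nuclear list), and with GC correction 0 of the 13 were called, while 7 of the 79 nuclear genes stayed lower. Without wildtype library 3, and also without heterozygous library 1, 1 nuclear gene was lower and 0 mitochondrial genes were called. With the blood covariate 0 of the 79 nuclear genes were lower, where 0.507% of all tested genes were. Their median log2 fold change was then -0.08.

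Other housekeeping lists moved little. None of 76 cytosolic ribosomal protein genes, 2 of 76 mitochondrial ribosomal protein genes (*Mrpl4* and *Mrpl42*), 1 of 37 proteasome genes (*Psmd3*) and 1 of 19 cholesterol synthesis genes (*Fdps*) were lower, and none was higher. Of 16 glycolysis genes 2 were lower: *Eno1* (enolase) had 358, 348 and 354 CPM in wildtype and 307, 324 and 322 CPM in heterozygous libraries (log2 fold change -0.15, adjusted p = 0.0059), and *Aldoa* (aldolase) a log2 fold change of -0.12 that did not pass with GC correction. Of 14 heat shock chaperones *Bag3* (log2 -0.26) and *Hsph1* (log2 -0.16) were lower. With either wildtype library 3 or heterozygous library 1 left out, 1 glycolysis gene stayed lower and none of the other genes of these lists. None of 13 interferon-induced, 10 MHC class I, 9 hypoxia, 13 cell cycle and 12 histone genes tested was called.

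Genes that respond to neuronal activity were examined next. Immediate-early genes are switched on within minutes of firing, and late genes such as *Bdnf* and *Vgf* follow through the factor CREB. Of 15 immediate-early genes 2 were lower and 0 higher (median log2 fold change -0.24). Of the 15, 8 lay below 0 and 7 above, and the sums overlapped, at 390.3, 466 and 526 CPM in wildtype and 369, 512 and 371 CPM in heterozygous libraries. Of 8 late genes 3 were lower and 0 higher (median -0.16). *Vgf*, a secreted neuropeptide precursor, had 18.9, 21.2 and 23.3 CPM in wildtype and 10.98, 17.4 and 13.9 CPM in heterozygous libraries (log2 fold change -0.58, adjusted p = 0.0067). *Bdnf*, the neurotrophin, had 23.8, 25.1 and 25.8 against 18.8, 23.9 and 18.96 CPM (log2 fold change -0.28, adjusted p = 0.037). In both genes heterozygous library 2, the 1 highest in erythroid markers, was the nearest to wildtype. *Nr4a1*, an inducible nuclear receptor, had 42.7, 49.3 and 59.9 against 32.8, 43.8 and 29.2 CPM (log2 fold change -0.52, adjusted p = 0.014), with overlap.

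*Arc*, which acts at active synapses, had 21.5, 21.4 and 22.3 against 17.1, 19.01 and 19.2 CPM (log2 fold change -0.24, adjusted p = 0.022; 0.097 with GC correction). *Fos*, the best known of the immediate-early genes, varied among the wildtype libraries themselves, with 33.9, 48.7 and 68.8 CPM against 26.5, 57.1 and 24.4 CPM, and did not pass (adjusted p = 0.27). *Dusp1*, a phosphatase induced alongside it, had 40.2, 69.5 and 86.6 against 32.0, 65.98 and 39.3 CPM (adjusted p = 0.19). With a blood covariate in the fit, 8 of the 15 immediate-early genes were lower, where 0.507% of all genes were. Without heterozygous library 2 the count was 7, and without wildtype library 3 or heterozygous library 1 it was 0, with 1 higher in the latter. Of the late genes 0 were lower without wildtype library 3 and 1 without heterozygous library 1.

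Among 15 neuropeptide and granin genes 4 were lower and 0 higher (median log2 fold change -0.17). *Pcsk2*, the protease that cuts peptide precursors, had 126, 129 and 131 CPM in wildtype and 114, 111 and 117 CPM in heterozygous libraries (log2 fold change -0.17, standard error 0.03, adjusted p = 0.0048). *Chgb*, a granin of dense-core vesicles, had 848, 850.4 and 863 against 749, 783 and 812 CPM (log2 fold change -0.13, adjusted p = 0.022). The sets did not overlap for either. *Scg2*, another granin, counted also among the late activity genes, had a log2 fold change of -0.17, and *Npy*, neuropeptide Y, one of -0.43. The cyclic AMP response element TGACGTCA (both strands; a palindrome) was in the promoters of 549 of 27025 genes (2.03%), and *Scg2* was the 1 of the 4 late activity genes with a RefSeq promoter that held it. Of 400 tested genes with this element 14 were lower and 7 higher, where 2.56% and 2.69% of all tested genes were. Their median log2 fold change was -0.01. With GC correction 2 of the 15 neuropeptide genes were lower (*Chgb* and *Npy* had adjusted p = 0.078 and 0.061), and without wildtype library 3 or without heterozygous library 1 it was 1.

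Glucocorticoids act through a receptor that binds the palindrome GRE and raises a set of stress hormone targets. Of 18 glucocorticoid-responsive genes listed, 1 was lower, 5 were higher and 12 did not pass (median log2 fold change 0.13), and the counts were the same with GC correction. Their sums overlapped, at 1158, 1023 and 1035 CPM in wildtype and 1159, 1134 and 1167 CPM in heterozygous libraries. The strict palindrome (AGAACA, any 3 bases, TGTTCT, searched on both strands) was in the promoters of 3 of 27025 genes (0.0111%), and *Sgk1* was the 1 list member among them. Its promoter is shown for that element, in capitals.
Sgk1, chr10:21993640-21993939, plus strand: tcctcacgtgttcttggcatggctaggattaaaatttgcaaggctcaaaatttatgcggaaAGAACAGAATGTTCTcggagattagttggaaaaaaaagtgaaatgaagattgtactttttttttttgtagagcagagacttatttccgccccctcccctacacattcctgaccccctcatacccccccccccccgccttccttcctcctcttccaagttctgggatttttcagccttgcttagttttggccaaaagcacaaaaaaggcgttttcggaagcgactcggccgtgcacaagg

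*Sgk1*, a kinase that regulates ion channels, had 94.3, 72.0 and 66.4 CPM in wildtype and 121, 103 and 108 CPM in heterozygous libraries (log2 fold change 0.51, adjusted p = 0.0032). *Ddit4*, an inhibitor of mTORC1, had 36.4, 36.6 and 35.5 against 43.8, 44.3 and 41.9 CPM (log2 fold change 0.26, adjusted p = 0.0017). *Nfkbia*, the inhibitor of NF-kappaB, had 19.3, 17.6 and 15.7 against 22.5, 22.9 and 23.3 CPM (log2 fold change 0.39, adjusted p = 0.0030). The ranges of all 3 were apart, and each was called with any 1 library left out. *Tsc22d3* (GILZ) and *Sult1a1* (a sulphotransferase), the other 2 higher genes of the list, had log2 fold changes of 0.30 and 0.40. Against these, *Zbtb16*, a zinc finger repressor that the hormone also induces, was lower, at 32.7, 26.5 and 21.3 against 12.3, 14.6 and 16.5 CPM (log2 fold change -0.89, standard error 0.12, adjusted p = 4.1e-04), and *Fkbp5*, a feedback regulator of the receptor, had 16.6, 11.2 and 11.3 against 11.4, 11.96 and 11.9 CPM (adjusted p = 0.53). Wildtype library 1 was the highest wildtype library for *Sgk1*, *Zbtb16* and *Fkbp5*; without it 2 of the list were lower and 9 higher. These counts were 1 and 3 without wildtype library 3, and without heterozygous library 1 they were 1 and 4.

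Of 16 circadian clock genes 1 was lower and 3 were higher. *Nr1d1*, a repressor in the clock's second loop, had 186, 178 and 183 CPM in wildtype and 159, 166 and 167 CPM in heterozygous libraries (log2 fold change -0.15, adjusted p = 0.0081). *Per3*, *Clock* and *Cry2* had log2 fold changes of 0.16, 0.17 and 0.11. None of the 4 was called without wildtype library 3 or without heterozygous library 1. The hour at which tissue was taken is not given in the sources used here.

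The inflammasome is a complex that activates caspase-1, which then matures interleukin-18. Of 7 inflammasome genes tested, 3 were higher and 0 lower (median log2 fold change 0.38), with GC correction and with any 1 library left out as well. *Casp1* had 2.02, 2.20 and 2.21 CPM in wildtype and 5.47, 5.05 and 5.43 CPM in heterozygous libraries (log2 fold change 1.31, standard error 0.12, adjusted p = 7.1e-06). *Casp12*, a caspase beside it on chromosome 9 (chr9:5345430-5373032 and chr9:5298517-5307265), had 5.75, 6.88 and 6.45 against 9.25, 10.4 and 9.33 CPM (log2 fold change 0.60, adjusted p = 0.0012). *Il18*, also on chromosome 9 but far away (chr9:50554827-50581840), had 9.83, 9.42 and 9.90 against 13.1, 12.2 and 12.7 CPM (log2 fold change 0.38, adjusted p = 0.0052). All 3 were well apart between genotypes. Other called genes lie near *Il18*, among them *Zbtb16* (chr9:48654297-48836222) and *Cryab* (chr9:50751325-50756636), lower, and *Arhgap20* (chr9:51765337-51853856), higher. Of 898 tested genes on chromosome 9, 28 were lower (3.12%) and 32 higher (3.56%), where 2.56% and 2.69% of all tested genes were. With fold limits 1 was lower and 10 higher (0.3% and 0.532% of all tested genes). Whether position links these calls was not tested. The sensors and adaptor *Nlrp3*, *Aim2* and *Pycard* were under 1.3 CPM in every library and did not pass, and *Il1b* was too low to be tested. The summed microglial markers overlapped between genotypes (138-146 and 138-145 CPM). With the blood covariate 1 of the 7 was called, while the median was 0.36. *Casp12* then had a log2 fold change of 0.41 (adjusted p = 0.18) and *Il18* of 0.45 (adjusted p = 0.061).

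**Figure D2:**
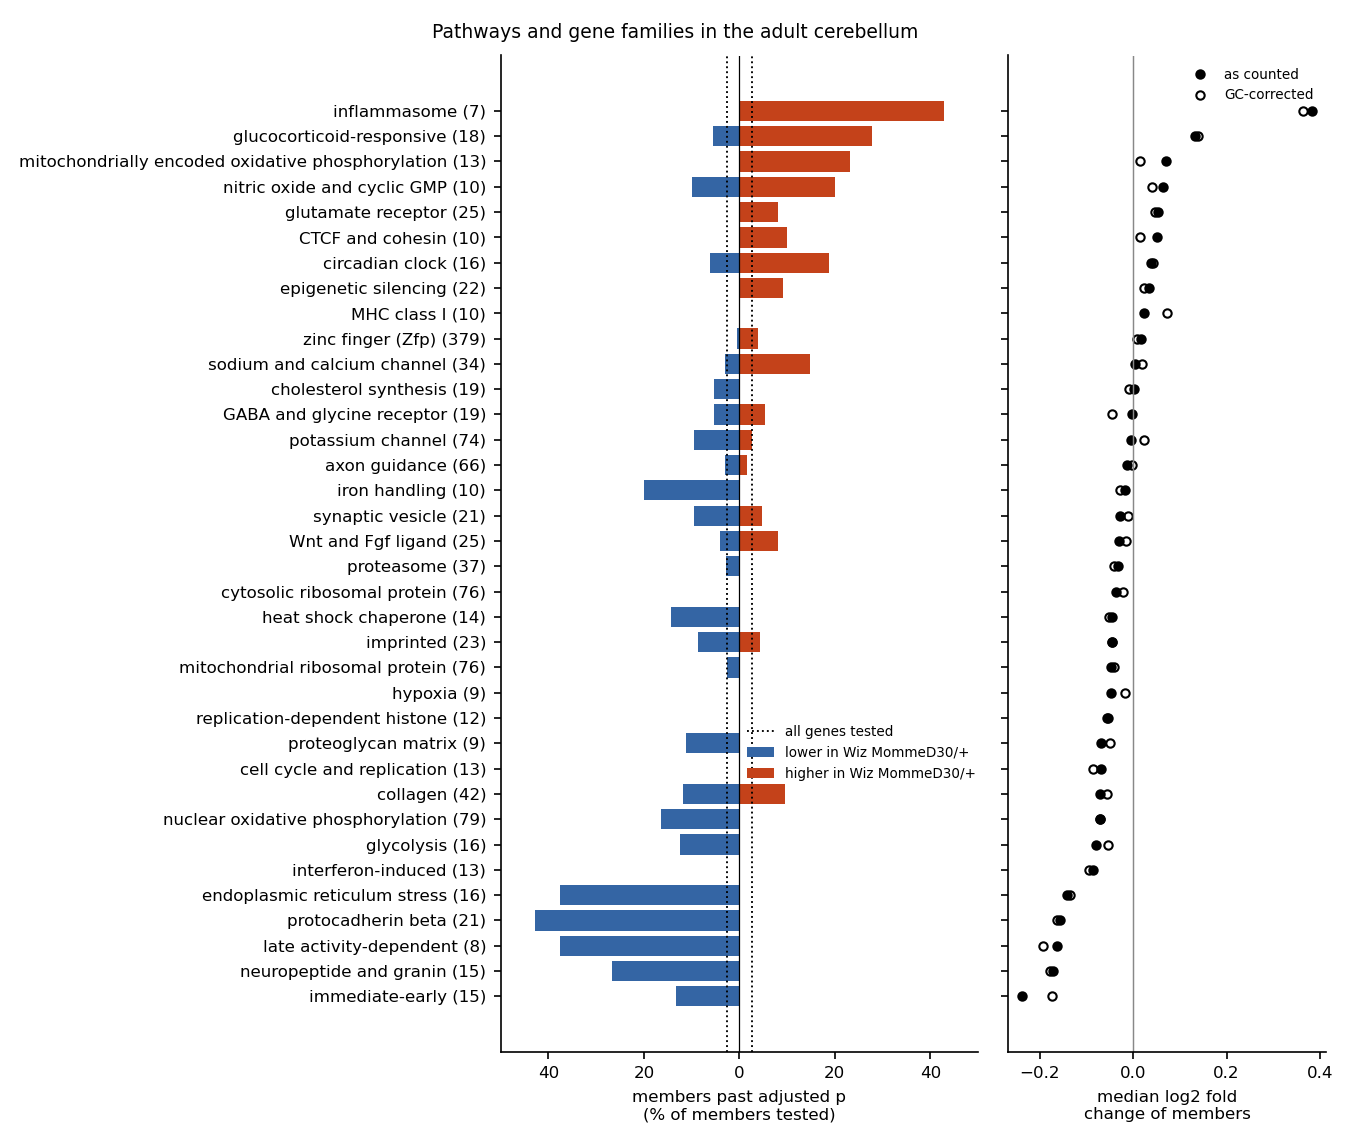
Left, the share of each list's tested members called lower (blue) or higher (red) in heterozygous cerebellum, with dotted lines at the shares of all genes (2.56% and 2.69%) and the number tested in brackets; right, the median log2 fold change of the members as counted (filled) and with GC correction (open). The median of immediate-early genes lies at -0.24 and that of inflammasome genes at 0.38.

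Ion channels and receptors were mixed. Of 74 potassium channel genes 7 were lower and 2 higher (median log2 fold change -0.01), and of 34 sodium and calcium channel genes 1 was lower and 5 were higher (median 0.00). *Cacna1i*, a T-type calcium channel that drives burst firing, had 131, 133 and 123 CPM in wildtype and 165, 154 and 159 CPM in heterozygous libraries (log2 fold change 0.30, standard error 0.04, adjusted p = 1.3e-04). *Cacna1c* and *Cacna1d*, the L-type channels of neurons, had log2 fold changes of 0.21 (adjusted p = 0.0050) and 0.16 (adjusted p = 0.012). Without wildtype library 3, 0 of the sodium and calcium channel genes were lower and 1 higher, and without heterozygous library 1, 0 and 3. For the potassium channel genes these counts were 4 and 0, and 4 and 1.

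*Kcng4*, a silent potassium channel subunit, had 169, 169 and 165 CPM in wildtype and 147, 150.3 and 150.5 CPM in heterozygous libraries (log2 fold change -0.16, adjusted p = 0.0037). *Kcnh2*, the ERG channel, had 53.9, 52.1 and 51.3 against 44.8, 44.2 and 46.1 CPM (log2 fold change -0.22, adjusted p = 0.0042), and *Kcnj3*, a channel opened by G proteins, 137, 144 and 148 against 124, 121 and 129 CPM (log2 fold change -0.20). None of the 3 overlapped. *Kcnk12*, a tandem pore family member, had a log2 fold change of -0.42, and it and *Kcnh2* missed the threshold with GC correction (adjusted p = 0.073 and 0.074). Of the glutamate receptors 0 of 25 were lower and 2 higher, *Grin2a* (an NMDA subunit, log2 fold change 0.31) and *Gria2* (an AMPA subunit, log2 fold change 0.12); of 19 GABA and glycine receptor genes *Gabrd* was lower and *Gabra2* higher (log2 fold change 0.24). At the release site, *Unc13a*, which primes vesicles, had 316, 333 and 336 against 273, 274 and 295 CPM (log2 fold change -0.23, adjusted p = 0.0011), and 2 of 21 synaptic vesicle genes were lower and 1 higher in all. Without wildtype library 3, and also without heterozygous library 1, no glutamate receptor was called, 1 GABA or glycine receptor was higher and 1 synaptic vesicle gene was lower.

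*Nos1*, neuronal nitric oxide synthase, was the gene with the smallest p among the higher genes, at 305, 329 and 299 CPM in wildtype and 407, 403 and 423 CPM in heterozygous libraries (log2 fold change 0.40, standard error 0.03, adjusted p = 3.5e-06). Nitric oxide acts on soluble guanylyl cyclase to make cyclic GMP. Of 10 genes of that route, 2 were higher and 1 lower: *Gucy1a2*, a cyclase subunit, had 4.47, 5.12 and 3.78 against 6.35, 6.71 and 5.43 CPM (log2 fold change 0.47, adjusted p = 0.031), and *Pde1c*, which breaks cyclic GMP down, a log2 fold change of -0.18. The main cyclase subunits *Gucy1a1* and *Gucy1b1* had log2 fold changes of 0.01 and 0.02 (standard errors 0.04 and 0.03). Of the 10, 0 were lower and 1 higher without wildtype library 3, and 1 and 1 without heterozygous library 1.

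Cell surface and matrix genes included clusters of near-identical copies. Of 21 protocadherin beta genes, neuronal adhesion genes in 1 array on chromosome 18, 9 were lower and 0 higher (median log2 fold change -0.16). These counts were the same with GC correction. Of the 21, 3 were lower without wildtype library 3 and 5 without heterozygous library 1. With the blood covariate 1 was lower, where 0.507% of all tested genes were, and the median was -0.21. *Pcdhb14* had 11.8, 11.1 and 12.9 CPM in wildtype and 6.64, 7.63 and 8.42 CPM in heterozygous libraries (log2 fold change -0.66, adjusted p = 5.7e-04). *Pcdhb3*, *Pcdhb13* and *Pcdhb8* had log2 fold changes of -0.54, -0.72 and -0.77, and the other lower members were *Pcdhb2*, *Pcdhb6*, *Pcdhb10*, *Pcdhb11* and *Pcdhb15*. Members of the array from *Pcdhb16* to *Pcdhb22* showed log2 fold changes of -0.07 to 0.18, and none of them passed. Only 1 identifier of each of the alpha and gamma clusters was matched, named *Pcdha11* and *Pcdhgc4* in the annotation. They had 157-167 and 690-717 CPM over the libraries of both genotypes, and log2 fold changes of 0.01 and 0.03. Whether each holds reads of other genes of its cluster is not given. How reads shared by these copies were counted is not given, so single values are uncertain.

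The cadherin 11-like genes (6 on chromosome 8, and *Gm10557* on chromosome 18) and the protocadherin beta genes were singled out by the study from its E13.5 brain calls in this series, so that neither list was chosen blind to these data. All 7 cadherin 11-like genes tested were lower (median log2 fold change -0.61), and 6 without wildtype library 3 or without heterozygous library 1, among them *Gm21092* with 105, 109 and 103 CPM in wildtype and 69.7, 67.1 and 68.7 CPM in heterozygous libraries (log2 fold change -0.63, adjusted p = 2.1e-08). *Gm6483*, *6820431F20Rik* and *2610005L07Rik* had log2 fold changes of -0.61, -0.61 and -0.58. Of 41 unprocessed pseudogenes tested, 4 were lower and 0 higher: *Gm21092*, *Gm6483* and *Gm21811* of this list, and *Gm45351* on chromosome 7. The rest of the 10 lower genes with the smallest p and a change beyond the fold limits were *Rps4l*, a ribosomal protein pseudogene (4.47, 5.76 and 5.60 against 1.98, 2.78 and 2.89 CPM), *Gm45351* (1.34, 1.93 and 1.24 against 0.741, 0.474 and 0.520 CPM), *Zbtb16*, *Pcdhb14* and 2 identifiers with no symbol in the annotation. The latter, ENSMUSG00000094614 and ENSMUSG00000101635, had log2 fold changes of -1.04 and -0.93.

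Among the 10 higher genes chosen in the same way were enzymes of amino acid breakdown. *Tdo2*, which opens the tryptophan ring, had 9.76, 10.3 and 11.5 CPM in wildtype and 16.3, 16.5 and 16.7 CPM in heterozygous libraries (log2 fold change 0.65, adjusted p = 4.8e-05). *Arg1*, liver-type arginase, had 2.35, 2.71 and 2.70 against 4.69, 5.998 and 5.53 CPM (log2 fold change 1.06, adjusted p = 1.4e-04). Both were called without any 1 library. *Adamts18*, a secreted metalloprotease, had 22.0, 24.0 and 22.0 against 35.9, 31.3 and 31.4 CPM (log2 fold change 0.53), and *Abi3bp*, an extracellular matrix protein, 10.97, 11.8 and 11.8 against 17.5, 17.2 and 17.04 CPM (log2 fold change 0.58). *Arhgap20* (a GTPase-activating protein), *Alpk2* (an atypical kinase) and *Trp53i11* (a p53-induced gene) had log2 fold changes of 0.38, 0.60 and 0.39. *Gm15083* is annotated as antisense, and with the strand setting of the counting not given its reads and those of the gene it overlaps cannot be told apart.

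Of 42 collagen genes 5 were lower and 4 higher, and 0 and 4 with GC correction. *Col12a1*, which decorates collagen fibrils, had 12.5, 12.6 and 13.9 CPM in wildtype and 18.2, 17.4 and 19.3 CPM in heterozygous libraries (log2 fold change 0.49, adjusted p = 3.9e-04). *Col4a6* and *Col6a6* were higher too (log2 fold changes 0.50 and 0.81). Of 9 proteoglycan matrix genes *Hapln4*, a link protein of perineuronal nets, was lower (log2 fold change -0.12, adjusted p = 0.19 with GC correction). Developmental signals moved singly among 25 Wnt and Fgf genes. *Wnt3*, a secreted ligand, had 16.3, 17.1 and 17.4 against 21.2, 21.1 and 21.6 CPM (log2 fold change 0.33, adjusted p = 0.0023). *Wnt7a* was higher (log2 fold change 0.16) and *Wnt16* lower (log2 fold change -0.59). Of 66 axon guidance genes 2 were lower (*Sema7a* and *Ephb4*) and 1 higher (*Plxnc1*). Without wildtype library 3, and also without heterozygous library 1, 0 collagen genes were lower and 2 higher, 1 Wnt or Fgf gene was higher and no proteoglycan gene was called. Of the axon guidance genes 0 and 1 were then lower.

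Chromatin genes related to *Wiz* changed little. None of 22 epigenetic silencing genes was lower and 2 were higher, *Atrx*, a chromatin remodeller (299.7, 327 and 301 against 353, 342 and 336 CPM, log2 fold change 0.15, adjusted p = 0.015), and *Dnmt3a*, a DNA methyltransferase (201, 209 and 209.6 against 227, 222 and 219 CPM, log2 fold change 0.11, adjusted p = 0.041). *Smc3*, a ring subunit of cohesin, was the 1 of 10 CTCF and cohesin genes called (log2 fold change 0.14), and all 10 lay above 0. These genes are low in GC (median 41.9%), and their median log2 fold change was 0.05, or 0.01 with GC correction. With GC correction *Atrx* and *Smc3* missed the threshold (adjusted p = 0.12 and 0.099). Of 379 genes named *Zfp*, *Zkscan* or *Zscan*, 2 were lower and 15 higher, where 2.56% and 2.69% of all tested genes were. Their median log2 fold change was 0.02. *Zfp982* had 4.86, 5.25 and 4.82 against 7.41, 7.05 and 6.57 CPM (log2 fold change 0.49). *Zfp462*, *Zfp871* and *Zfp26* were at log2 0.20 to 0.31. With GC correction the counts were 1 and 9, where 1.6% and 2.25% of all tested genes were called. They were 0 and 2 without wildtype library 3, and 0 and 4 without heterozygous library 1. No epigenetic silencing or cohesin gene was called when either of these libraries was left out. Among 23 imprinted genes *Dlk1* (log2 -1.04) and *Mirg* (log2 -0.22), both of the chromosome 12 domain, were lower and *Grb10* was higher (log2 fold change 0.19), while 1 was lower and 1 higher without wildtype library 3, and 1 and 0 without heterozygous library 1. None of the 3 germline genes tested was called.

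*Slc6a2*, the noradrenaline transporter of locus coeruleus neurons, was lower at a very low level; the cell bodies of these neurons lie in the brainstem. It had 0.881, 0.610 and 0.716 CPM in wildtype and 0.141, 0.0678 and 0.293 CPM in heterozygous libraries (log2 fold change -2.10, standard error 0.39, adjusted p = 0.0055). *Dbh*, which makes noradrenaline, had 0.359, 0.474 and 0.619 against 0.176, 0.203 and 0.293 CPM and did not pass (adjusted p = 0.093). Its ranges did not overlap, which held for 24.3% of all tested genes. The other 4 of the 6 brainstem monoamine markers tested had log2 fold changes of -0.02 to 0.45, and the list summed to 14.0-16.1 CPM in wildtype and 13.9-15.5 CPM in heterozygous libraries.

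Base composition shifted with genotype. In the 10% of genes lowest in exonic GC content, 11 were lower and 117 higher (median log2 fold change 0.05), and in the highest 10% 130 were lower and 14 higher (median -0.08). Taken library by library, the median deviation of the lowest 10% minus that of the highest was -0.118, -0.0148 and -0.0519 in the wildtype libraries and 0.0886, 0.0695 and 0.0283 in the heterozygous libraries. Each wildtype library was thus below 0 and each heterozygous library above, with wildtype library 1 and heterozygous library 1 at the ends. With a GC offset fitted in each library, 256 genes were lower (1.6%) and 360 higher (2.25%), and 504 of the 839 calls were kept in the same direction. The lowest 10% then had 24 lower and 35 higher, and the highest 10% had 19 lower and 48 higher. The longest 10% of genes had 34 lower and 139 higher, and 31 and 85 after GC correction. On the X chromosome 3 of 560 genes were lower (0.536%) and 21 higher (3.75%), where 2.56% and 2.69% of all tested genes were. After correction these counts were 3 and 12, where 1.6% and 2.25% of all tested genes were called. Whether the GC shift arose in the tissue or in library preparation was not tested.

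**Figure D3:**
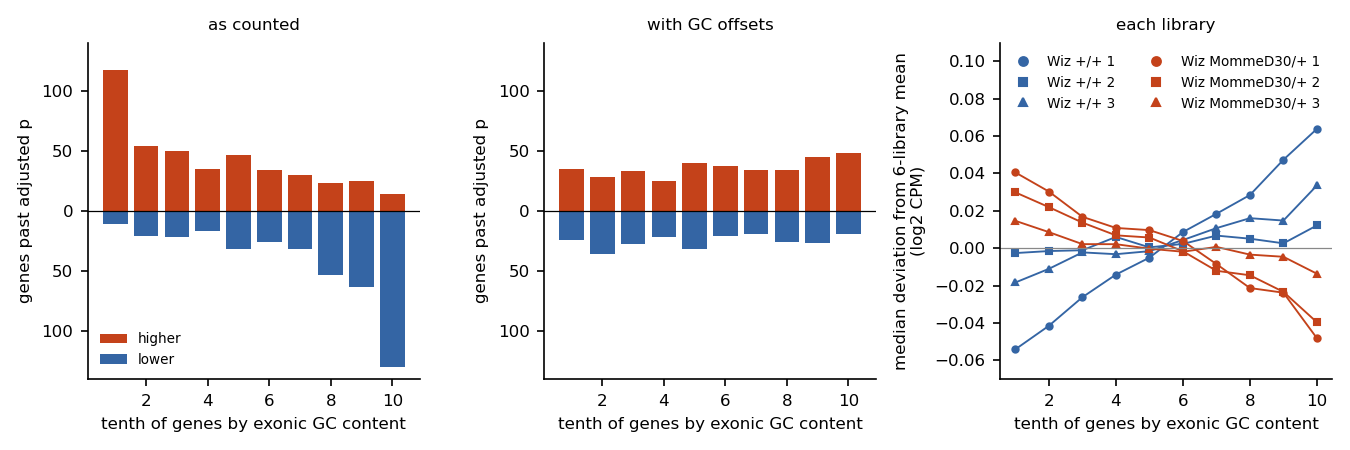
Genes called higher (red, up) and lower (blue, down) in each of 10 equal groups of genes by exonic GC content, as counted (left) and with GC offsets (middle); right, each library's median deviation from the 6-library mean. As counted, the lowest group has 117 higher and 11 lower genes, and the libraries of the 2 genotypes slope in opposite directions.

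Residual blood was also entered as a covariate, as the mean log2 CPM of the erythroid genes (2.74-3.22 in wildtype and 3.50-4.34 in heterozygous libraries). These ranges do not overlap, so blood and genotype cannot be fully told apart in this fit. It called 81 genes lower (0.507%) and 95 higher (0.595%), 131 of the 839 calls among them in the same direction. *Wiz*, *Nos1*, *Casp1*, *Tdo2*, *Arg1* and *Sgk1* were called in it, at log2 fold changes of -0.48, 0.42, 1.37, 0.59, 0.80 and 0.83. *Trf*, *Creld2* and *Zbtb16* were not, at log2 fold changes of -0.26, -0.31 and -0.64, nor was *Pcdhb13*, at -0.21 against -0.72 without the covariate.

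Of the 839 genes, 70 were called in the full comparison, with each library left out, with GC correction and with the blood covariate, 26 lower and 44 higher. Beside genes above, they included some chosen here after their values were seen. *Pcsk1n*, an inhibitor of the protease that matures neuropeptides, had 207, 185 and 202 CPM in wildtype and 152, 158 and 167 CPM in heterozygous libraries (log2 fold change -0.32, adjusted p = 2.2e-04). *Hsd11b1*, the enzyme that regenerates active glucocorticoid inside cells, had 51.9, 50.0049 and 49.3 against 60.3, 61.3 and 61.6 CPM (log2 fold change 0.28, adjusted p = 3.4e-04). *Sik3*, a salt-inducible kinase, had 236, 234 and 249.9 against 176, 184 and 198 CPM. None of the 3 overlapped between genotypes.

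The cerebellum was set beside the 6 male whole brains at embryonic day 13.5 (3 per genotype) in 1 fit of 12 libraries with a genotype by tissue term. Tissue and age go together in this comparison and cannot be told apart. The term was past the threshold for 45 of 17337 genes (0.26%), of which 20 were higher and 13 lower in the cerebellum, 12 were not called there and 8 were called in the brain. *Nos1* went up in cerebellum (log2 fold change 0.40), while the brains had 28.9, 22.5 and 19.9 CPM in wildtype and 15.8, 17.1 and 22.3 CPM in heterozygous libraries (log2 fold change -0.39, adjusted p = 0.49). The term for it was 0.81 (adjusted p = 0.024). *Cacna1i* had a term of 0.48 (adjusted p = 0.036), with 17.6, 15.6 and 14.4 against 13.1, 14.0 and 15.6 CPM in brain. *Zbtb16*, lower in cerebellum, had 8.90, 11.1 and 9.88 against 10.8, 10.1 and 10.3 CPM in brain, and a term of -0.99 (adjusted p = 0.027).

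Terms past the threshold were also found for *Tdo2*, *Arg1*, *Arhgap20*, *Trp53i11*, *Ddit4* and *Nfkbia*, all higher in cerebellum. *Tdo2* and *Arg1* were at 0.269-1.41 and 0.293-0.917 CPM in brain. On the other side, *Sycp1*, a gene of meiotic chromosomes, had 25.3, 25.7 and 25.6 against 27.8, 25.3 and 24.5 CPM in cerebellum but 11.01, 8.80 and 10.6 against 5.10, 6.26 and 4.90 CPM in brain, and a term of 0.95 (adjusted p = 0.0018). The 6 protocadherin beta genes with a term were *Pcdhb16*, *Pcdhb17*, *Pcdhb18*, *Pcdhb19*, *Pcdhb20* and *Pcdhb22*, none of them called in cerebellum. *Pcdhb17* had 18.9, 18.97 and 19.1 against 19.7, 18.9 and 18.1 CPM in cerebellum and 27.1, 30.3 and 30.1 against 18.05, 15.8 and 16.4 CPM in brain. *Wiz* had no such term (0.13, adjusted p = 0.39), nor had *Pcdhb14* (0.25, adjusted p = 0.69), nor *Casp1* (0.56, adjusted p = 0.63).

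**Figure D4:**
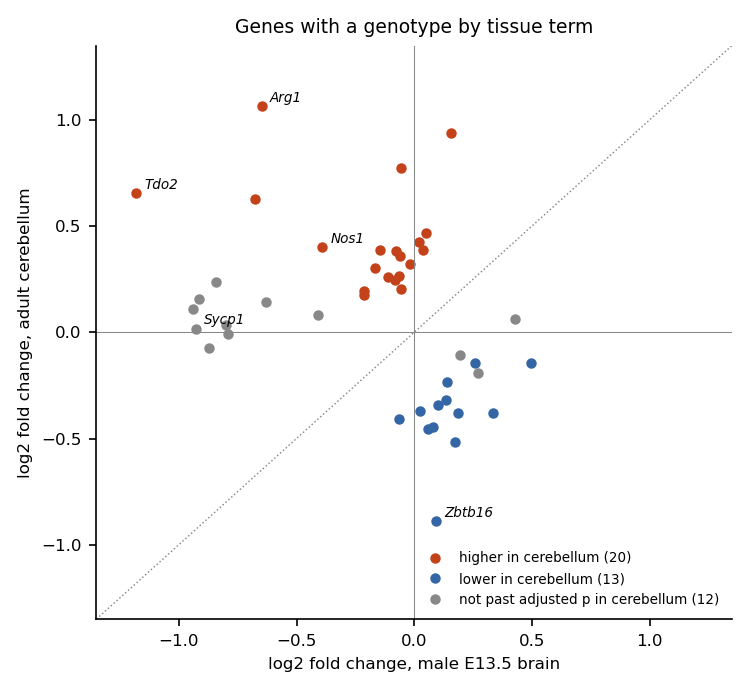
The 45 genes with a genotype by tissue term past the threshold, by log2 fold change in male E13.5 brain (x axis) and adult cerebellum (y axis); red is called higher in cerebellum, blue lower, grey not called there, and the dotted line marks equal change. *Nos1* lies at 0.40 in cerebellum and -0.39 in brain, and *Sycp1* at 0.02 and -0.93.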

How the data were processed

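RNA was taken from cerebellums of adult male mice and sequenced as polyA libraries (100 bp single-end reads). Per the submitters' processing notes, the authors mapped reads to mm10 with TopHat2 2.0.11 and counted them over gene exons with HTSeq 0.6.1, and they deposited raw counts for each Ensembl gene. The annotation release, counting mode and strand setting are not given in the sources used here. Names, positions, length and GC content came from GENCODE M21 (GRCm38), which held 40340 of 41388 identifiers. The other 1048 had at most 0.171% of any library's counts. Libraries had 28365687 to 30856484 counts, and log2 fold changes had a median error of 0.0577. Replicates differed by more than sampling (chi-square per degree of freedom at least 2.11). The study calls them biological replicates.

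The genotypes were compared with edgeR 4.0.16 in R 4.3.3 on the 6 libraries: TMM scaling, filterByExpr with a minimum count of 10, the quasi-likelihood test and Benjamini-Hochberg adjustment over all genes tested. The first version of DESeq, which the study used, was not installed. Fold limits of 0.7 and 1.3 follow the study's methods. GC and length offsets were lowess fits with a span of 0.3 per library. The tissue term was tested on 12 male libraries. Alternatives were DESeq2 1.42.0 (size factors and Wald test), no filter, an average count of 50, a replicate block, GC, length and blood corrections and leaving out each library. The scripts were tested on simulated counts. Promoters (300 bases) are RefSeq's. Tables and plots used Python 3.11.15.

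Named genes were *Wiz*, the 10 with the smallest p in each direction past both limits without overlap, up to 4 called members of each list and, where none was called, up to 2 of the highest level, and defining markers of a cell type. Others are given by name to complete a count or the description of a list, and were chosen after their values were seen. A few genes are not reported here. The comparison, the 60 gene lists and the tests were chosen with earlier results of these data known.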

Additional observations from a re-analysis of the deposited data

Results flagged for a closer look

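The effect of genotype differed between adult cerebellum and male E13.5 brain, by the genotype by tissue term of edgeR, for 45 genes at an adjusted p of at most 0.05. Those among the genes named by rule were *Zbtb16* (term -0.99 on the log2 scale), *Nos1* (0.81), *Arhgap20* (0.46), *Trp53i11* (0.35), *Tdo2* (1.83), *Arg1* (1.71), *Ddit4* (0.37), *Nfkbia* (0.53), *Sycp1* (0.95) and *Cacna1i* (0.48), where a positive term means a more positive change in cerebellum. *Sycp1* was not called in cerebellum and was lower in brain. The other 9 were called in cerebellum and not in brain. The 45 also held 6 protocadherin beta genes. Age and tissue differ together in these libraries and cannot be told apart, and the number of genes with a term was 14 without wildtype cerebellum library 3 and 103 without heterozygous brain library 3.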

How the results depend on the processing

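The 839 calls became 849 with DESeq2's size factors, 627 with its Wald test, 846 at an average count of 50, 616 with GC correction, 842 with length correction, 1268 with no filter on low counts, 321 when all 12 male libraries shared a fit and 176 with the blood covariate. Leaving out 1 library gave 187 (wildtype 3) to 891 (wildtype 2), with 280 without heterozygous 1 and 498 without wildtype 1. With fold limits the 133 became 75 with the Wald test and 211 with no filter, and ran from 70 to 153 with 1 library left out. The 45 genes with a tissue term became 122 with the Wald test and 13 with a replicate block, and ran from 14 to 103 with 1 library left out. The difference in median log2 fold change between the lowest and highest 10% of genes by GC, 0.130, became 0.00357 with GC correction and 0.00381 with GC correction and the block, as the correction is built to do.

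Reversals were seen under the blood covariate: *Ttr* (from -0.18 to 0.56), *Hbb-bs* (to -0.0121) and *Hba-a1* (to -0.0907), and the medians of the granule cell list (to 0.0334) and the collagen list (to 0.0195). A list was counted as reversed only where its median in the full fit exceeded the spread of its replicates. Other list medians changed sign too, among them choroid plexus (from -0.18 to 0.38, 0 markers lower and 2 higher) and histone (from -0.057 to 0.092). The globins form the covariate itself, and for the other changes the cause was not tested. Same-numbered libraries did not deviate together (correlations -0.022, -0.085 and -0.034), where differently numbered ones ran from -0.075 to 0.101. With 3 libraries per genotype, each taken against its genotype's mean, these values cannot show whether the numbers pair the libraries. With replicate number as a block 829 genes were called, 731 of them among the 839.

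Of the 120 called genes among the 146 named by rule, those no longer past the threshold numbered 27 with GC correction, 69 without wildtype library 3 and 61 without heterozygous library 1. With the blood covariate 84 kept their direction but were no longer past the threshold. The reversed *Hbb-bs* and *Hba-a1*, counted apart from these, were not past it either. Precision depended on depth: the error was 0.39 for *Slc6a2*, under 1 CPM, and 0.03 for *Nos1*.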
